A study of Mus musculus with 22 samples.

Results

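The respiratory chain genes described here are the nuclear genes whose symbol starts with Nduf, with Sdh followed by a, b, c or d, with Uqcr, with Cox followed by a digit from 4 to 8, or with Atp5. The rule found 90 genes of the 21110 listed. They comprise 81 subunit genes (38 of complex I, 4 of complex II, 6 of complex III, 18 of complex IV and 15 of complex V), 6 assembly factors and 3 genes that only share a prefix (Cox4nb, Atp5s and Atp5sl). The complex of a gene follows the prefix of its symbol, which counts Ndufa4 and Ndufa4l2 in complex I. RNA was sequenced from ear specimens of C57BL/6 mice, either wild type (WT) or carrying a conditional knockout of Socs3 (cKO) restricted to cells that express keratin 5, the keratin of basal epidermis. The 22 libraries form 6 groups: 4 WT and 4 cKO at 2 weeks after birth, 3 WT and 4 cKO at 8 weeks, and 3 WT and 4 cKO at 10 weeks. The labels give keratinocytes as the source, while the extraction was from whole ear pieces, and they leave unsaid whether each library is a different mouse, so the p-values cover the spread among libraries, which may be technical. In bulk tissue, fewer cells of a type and less RNA per cell cannot be told apart.

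The respiratory chain sits in the inner mitochondrial membrane. Complex I (NADH dehydrogenase) and complex II (succinate dehydrogenase) pass electrons to ubiquinone, complex III hands them to cytochrome c, complex IV (cytochrome c oxidase) reduces oxygen, and complex V uses the resulting proton gradient to make ATP. Several complex IV subunits exist as a widely expressed form and a form typical of heart and skeletal muscle, and striated muscle exchanges one for the other as it matures. Socs3, suppressor of cytokine signalling 3, limits signalling through STAT3.

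Expression was given by the authors as FPKM, fragments per kilobase of transcript scaled to the mapped reads of the library, which allows levels of different genes to be compared per length. Socs3 itself was listed at 10.2, 10.3, 10.3 and 9.71 FPKM in the WT libraries of 2 weeks and at 1.25, 9.32, 12.6 and 3.51 in those labelled cKO. At 8 weeks it was at 0.604, 1.36 and 0.93 FPKM in WT against 1.6, 5.3, 8.47 and 6.84, and at 10 weeks at 2.76, 4.81 and 2.02 against 36.5, 29.8, 47.7 and 32.4. Socs3 was therefore higher in every library labelled cKO than in every WT library at 8 and 10 weeks, against the label, and all directions below are between libraries as labelled. Ribosomal protein genes, which have equally short transcripts, made up 11.7% to 12.1% of all FPKM in the 4 WT libraries of 2 weeks. Their share was 32.3% to 42.4% in the 3 WT libraries of 8 weeks, and the other 15 libraries gave 15.8% to 29.7%. Of 1199 receptor genes normally silent in skin (olfactory and vomeronasal receptors), 34.9% to 74.2% were listed above 0 in the 6 WT libraries of 8 and 10 weeks and 3.25% to 7.26% in the other 16. Whatever sets these 6 libraries apart cannot be told apart from genotype at 8 and 10 weeks. Nor can it be told apart from age between WT at 2 weeks and WT at the later ages. Eif2s3y, a gene of the Y chromosome, was at 48.2 to 105 FPKM in cKO replicates 1 and 2 of each age, at 36.0 in WT replicate 4 of 2 weeks and at 1.85 in WT replicate 3 of 10 weeks, and at or below 0.114 in the other 14 libraries, so the sexes were not balanced between the genotypes. With Eif2s3y as a covariate, 53 members were called higher and 3 lower at 2 weeks, where 16.6% and 23.9% of all tested genes were.

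Of the 90 genes, 88 passed the filter of at least 1 FPKM in 3 libraries, and all 88 were at 1 FPKM or more in each of the 22 libraries, the lowest value being 1.65 FPKM for Atp5sl. The exceptions were Cox8c and Cox7b2, forms of complex IV subunits known from testis. Cox7b2 was listed at 0 in 17 libraries and at 0.217 to 1.14 FPKM in 5 WT libraries of 8 and 10 weeks. By mean over all libraries the most abundant subunit gene was Ndufa4 in complex I (723 FPKM), Sdhb in complex II (93.7), Uqcrh in complex III (589), Cox6b1 in complex IV (633) and Atp5k in complex V (921). The median subunit of complex II had a mean of 61.8 FPKM, against 122 in complex I, 195 in complex III, 189 in complex IV and 327 in complex V.

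Summed over their subunits, complexes I, III, IV and V had their 4 lowest levels in the 4 WT libraries of 2 weeks. Complex I summed to 2773, 2951, 2745 and 2703 FPKM in these 4 libraries and to 7524, 3654, 6044 and 5690 in the cKO libraries of the same age. At 8 weeks it summed to 18780, 7685 and 5615 FPKM in WT and to 8480, 4783, 6437 and 4615 in cKO. At 10 weeks it summed to 7857, 5064 and 7155 FPKM in WT and to 3888, 3796, 3706 and 5720 in cKO. The genotypes did not overlap at 2 weeks and overlapped at 8 and 10 weeks, and 1 WT library of 8 weeks (replicate 1) stood far above all others.

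Complex II spanned a narrower range in these sums. Its WT libraries gave 244.4, 257.6, 239.6 and 235.6 FPKM at 2 weeks, 244, 232 and 141.8 at 8 weeks and 278.5, 267.3 and 273.6 at 10 weeks. Its cKO libraries gave 317.6, 262.7, 313.9 and 335 FPKM at 2 weeks, 300.4, 312.5, 308 and 286.3 at 8 weeks and 261.5, 256.8, 244.6 and 303.8 at 10 weeks. Over all groups complex II thus spanned 141.8 to 335 FPKM, while complex I spanned 2703 to 18780, complex III 721.4 to 4835, complex IV 2076 to 10090 and complex V 2955 to 15800 FPKM. The highest values of complexes I, III, IV and V were all in the same WT library, replicate 1 at 8 weeks, which also had the highest ribosomal protein sum (411300 FPKM). The sum of the 81 subunits divided by that of the ribosomal proteins lay between 0.165 and 0.17 in the 4 WT libraries of 2 weeks. The other 18 libraries lay between 0.0985 and 0.152. As a percentage of the ribosomal protein sum, complex II spanned 0.0593% to 0.463% and complex I 3.64% to 5.26%. Against that reference complex II thus had the wider relative range. The Sdh transcripts are also longer, at 1142 to 2900 bases against a median of 732 for all subunits.

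**Figure D1:**
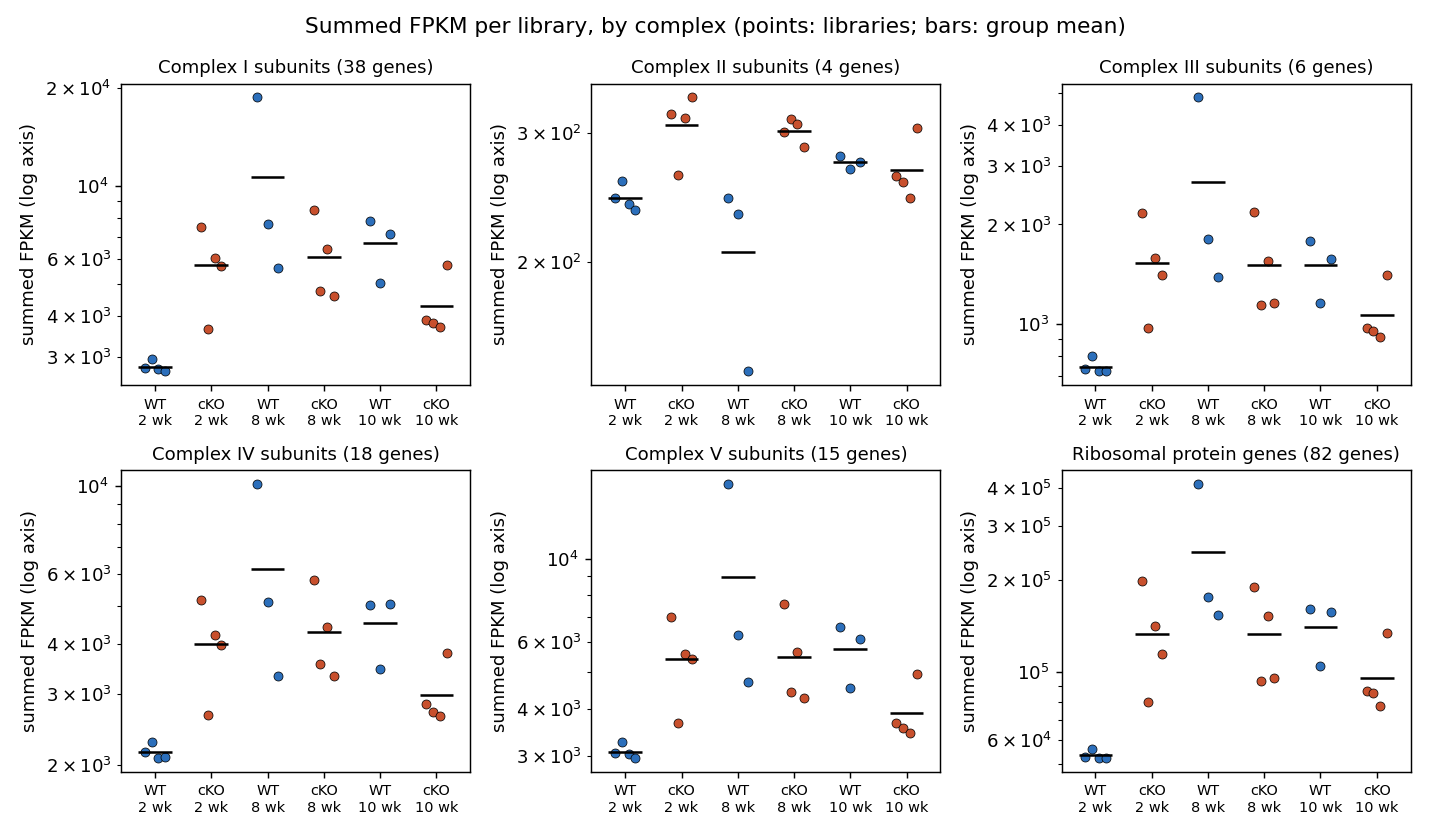
Summed FPKM of the subunits of each complex, and of 82 ribosomal protein genes, in each library (points; bars are group means; log axes). WT libraries at 2 weeks lie together at the bottom for complexes I, III, IV and V, where complex I is at 2703 to 2951 FPKM, and complex II stays between 141.8 and 335 FPKM in all 22 libraries.

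At 2 weeks most respiratory chain genes were higher in the libraries labelled cKO. Of the 88 tested, 54 were called higher and 4 lower (limma on log2(FPKM + 1), adjusted p under 0.05 over all 14139 genes tested), where 17.7% of all tested genes were called higher and 27.1% lower. The median change of the 88 was 0.80 on the log2 scale, against -0.15 for all tested genes and 1.23 for the 82 ribosomal protein genes, of which 77 were called higher. Markers of several cell types moved in the same contrast, and their part was not tested. Of 6 sebocyte markers 3 were called higher and 0 lower, with a summed level of 348 to 382 FPKM in WT and 1020 to 1790 in cKO. Of 5 fibroblast markers 3 were called lower and 1 higher, with 12600 to 14800 FPKM in WT and 5090 to 7070 in cKO. All 6 hair follicle markers were called lower, with a summed level of 2230 to 3300 FPKM in WT and 6.32 to 61.1 in cKO, and 4 of 8 adipocyte markers were called higher, with 233 to 267 FPKM in WT and 429 to 834 in cKO; none was at 0 throughout a group. By complex, 24 of 38 subunits of complex I, 2 of 4 of complex II, 4 of 6 of complex III, 11 of 16 of complex IV and 9 of 15 of complex V were called higher. The direction depends on the reference. Scaled to the ribosomal proteins, 5 members were called higher and 39 lower, where 1.81% and 75.8% of all genes were. Scaled by the median of ratios, 61 were called higher and 4 lower, where 23.4% and 26.1% of all genes were. Without cKO replicate 1, 24 members were called higher and 1 lower, and without WT replicate 1, 2 or 3 also 1 lower (2 without WT replicate 4).

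The largest rises belonged to the muscle forms of 3 complex IV subunits. Cox8b was at 14.2, 11.8, 10.8 and 14.7 FPKM in WT and at 146, 56.5, 125 and 96.9 in cKO, a log2 change of 2.88 (SE 0.46, limma adjusted p = 9.32e-05). Cox6a2 was at 17.5, 16.1, 10.8 and 9.32 FPKM in WT and at 97.3, 39.5, 97.5 and 65.1 in cKO, a change of 2.35 (SE 0.38). Cox7a1 was at 17.3, 17, 11 and 10.6 FPKM in WT and at 114, 45.8, 80.7 and 61 in cKO, a change of 2.30 (SE 0.44). For all 3 genes the lowest cKO library lay above the highest WT library, and all 3 were also called higher under the ribosomal protein scaling, with changes of 1.71, 1.18 and 1.14. Skeletal muscle markers moved with them: 10 of 14 were called higher, and their summed level was 846 to 1280 FPKM in WT and 2180 to 4120 in cKO, with none of the 14 at 0 in a whole group. The part of muscle content in these changes was not tested. Brown fat also uses Cox7a1 and Cox8b. A list of 4 brown adipocyte markers that holds Cox7a1 itself summed to 81.8 to 101 FPKM in WT and 261 to 349 in cKO at this age, and all 3 of its tested genes were called higher (Cox7a1, Cidea and Elovl3, which is also a sebocyte marker). Cidea was at 41.7 to 47.8 FPKM in WT and 113 to 158 in cKO, while Ucp1, the uncoupling protein of brown fat, was at or below 0.21 FPKM in every library. Their part in the change was not tested.

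Ndufa4, a small subunit first assigned to complex I and now placed in cytochrome c oxidase, was the fourth by size. By its symbol it is counted in complex I here. It was at 205, 234, 226 and 223 FPKM in WT and at 1370, 550, 921 and 843 in cKO, a log2 change of 1.97 (SE 0.35, limma adjusted p = 0.000242). Its relative Ndufa4l2, known as a target of hypoxia signalling and as a pericyte gene, went the other way. It was at 63.4, 57.6, 59.3 and 56.2 FPKM in WT and at 8.14, 27.2, 29.5 and 25.8 in cKO, a change of -1.49 (SE 0.33, limma adjusted p = 0.00191). Pericyte markers, a list that holds Ndufa4l2 itself, summed to 117 to 133 FPKM in WT and 50 to 94.6 in cKO, and 1 of 5 was called lower, which was Ndufa4l2. Their part in the change was not tested.

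The most abundant subunits rose as well. Uqcrh, the hinge protein of complex III, rose by 1.30 on the log2 scale (SE 0.36) and Atp5k, subunit e of the ATP synthase membrane part, by 1.25 (SE 0.38), which the ribosomal protein scaling reduced to 0.08 and 0.03. Cox6b1, which joins the monomers of the complex IV dimer, rose by 1.04 (SE 0.35), a change that turned to -0.17 with that scaling. The WT libraries were at 232 to 260 FPKM for Uqcrh and the cKO libraries at 367 to 1020. Atp5l, the neighbouring subunit g, rose by 1.83 (SE 0.40), from 97.4 to 130 FPKM in WT to 234 to 667 in cKO. Each of these 4 genes separated the genotypes completely at this age, as did 56 members in the higher and 4 in the lower direction, where 22.5% and 32.2% of all tested genes did. In complex II, Sdhb, the iron-sulphur subunit, rose by 0.62 (SE 0.22) and Sdhd, a membrane anchor, by 0.69 (SE 0.21), and both were lower with the ribosomal protein scaling, by -0.59 and -0.51. Sdha, the flavoprotein, was at 53.8 to 56.6 FPKM in WT and 50.6 to 70.3 in cKO, and Sdhc, the other anchor, at 64.4 to 76.5 and 18.3 to 75.2; neither passed the test.

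Atp5d, the delta subunit of the ATP synthase head, was the other subunit called lower. It was at 146, 152, 146 and 149 FPKM in WT and at 20.3, 101, 109 and 101 in cKO, a log2 change of -1.09 (SE 0.43, limma adjusted p = 0.0431). All cKO libraries lay below all WT libraries, and replicate 1 lay far below the rest; leaving out 1 library raised the adjusted p to as much as 0.231, and with Eif2s3y as a covariate it was 0.0806. Of the 9 members that are no subunits, 4 were called higher and 2 lower. Ndufaf2, an assembly factor of complex I, rose by 1.14 (SE 0.24; -0.02 with the ribosomal protein scaling), and Cox4nb, a subunit of the endoplasmic reticulum membrane complex despite its symbol, fell by 0.75 (SE 0.28).

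**Figure D2:**
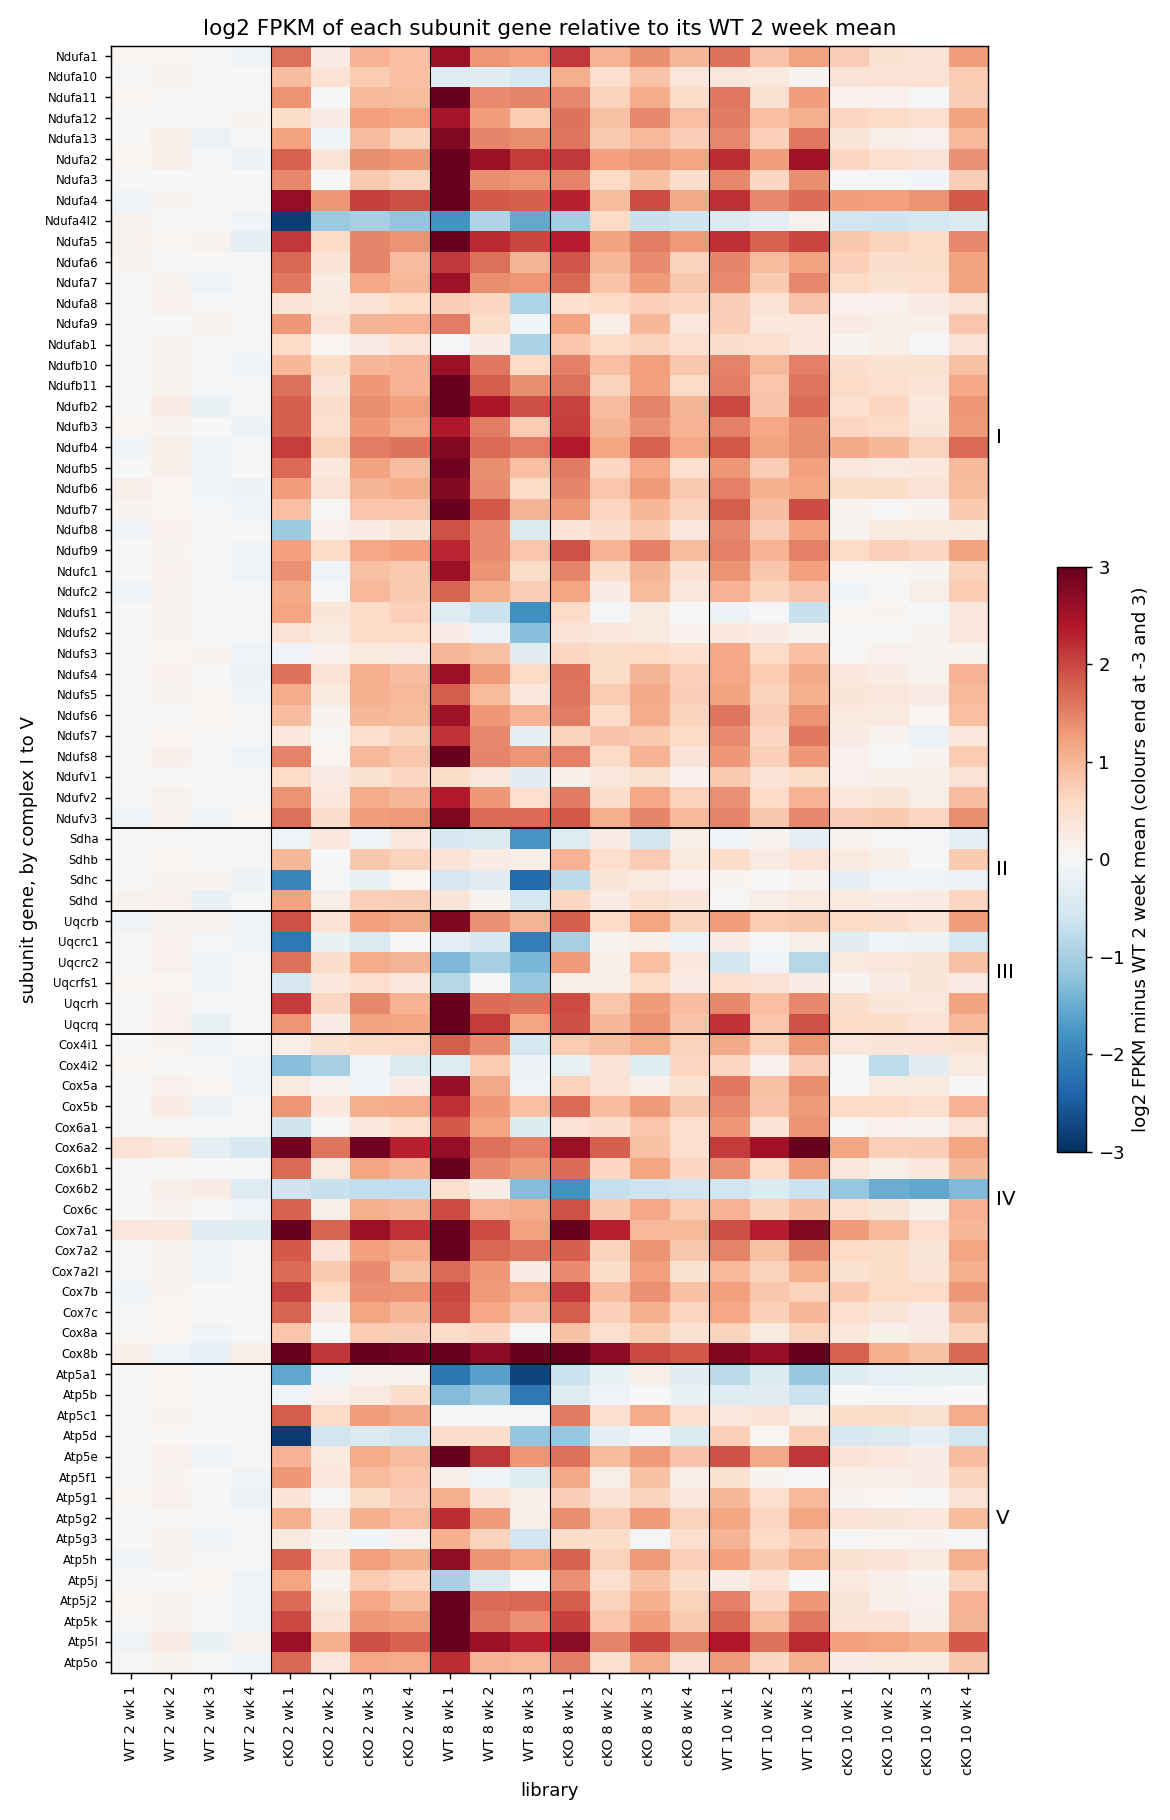
Colour map of the log2 FPKM of each of 79 subunit genes in each library relative to the mean of its WT libraries at 2 weeks, with rows by complex and columns by group (red higher, blue lower). Cox6a2, Cox7a1 and Cox8b are red in every group other than WT at 2 weeks, Ndufa4l2 is mostly blue, and WT replicate 1 at 8 weeks is the reddest column.

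Subunits that are partners in a complex did not keep a constant ratio of FPKM over the libraries. Of 8 pairs chosen after their values were seen, and so described without a test, 2 are given here. The log2 ratio of the core proteins Uqcrc1 over Uqcrc2 of complex III at 2 weeks was 0.76, 0.73, 0.80 and 0.67 in the WT libraries, against -3.07, 0.03, -0.81 and -0.25 in cKO. The log2 ratio of Atp5d over Atp5c1 (the gamma subunit) at the same age was 0.15, 0.03, 0.11 and 0.11 in the WT libraries, against -4.59, -1.02, -1.60 and -1.59 in cKO. The 4 WT libraries lay close together in both pairs, the cKO libraries lay below them, and cKO replicate 1 had the lowest ratio of the 22 libraries. In both pairs the first gene had the higher GC content, 56.06% against 47.2% and 60.2% against 48.66%, and its part was not tested. Uqcrc2 was called higher at this age, by 1.07 on the log2 scale (SE 0.25; -0.14 with the ribosomal protein scaling), while Uqcrc1 was at 107 to 123 FPKM in WT and 25.4 to 116 in cKO and did not pass.

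**Figure D3:**
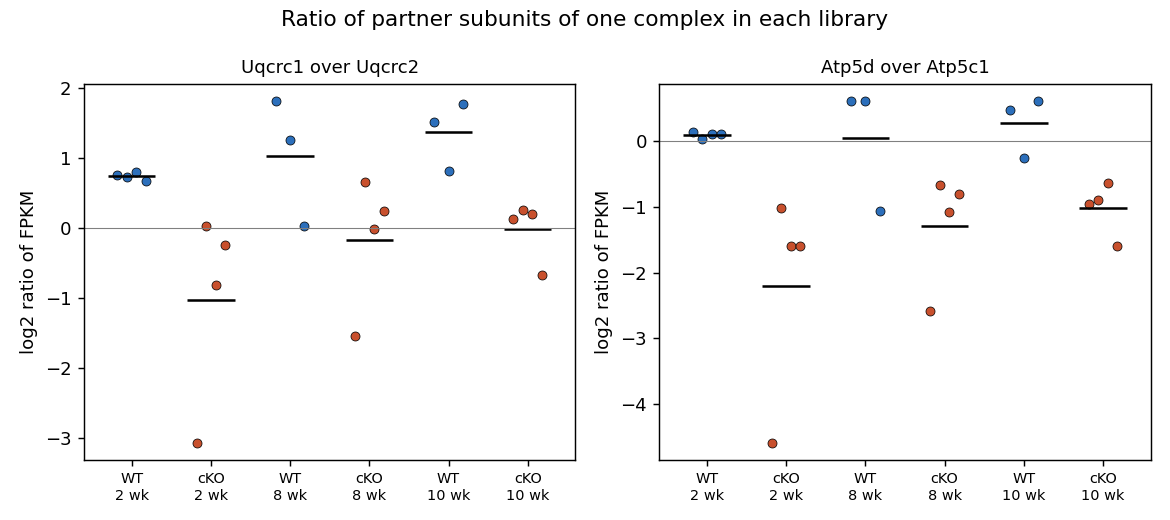
Log2 ratio of FPKM of Uqcrc1 over Uqcrc2 and of Atp5d over Atp5c1 in each library (points; bars are group means; the grey line marks equal FPKM). WT libraries at 2 weeks lie within 0.67 to 0.80 and 0.03 to 0.15, and cKO replicate 1 at 2 weeks is lowest in both panels, at -3.07 and -4.59.

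Across the members the change followed transcript length. The median transcript of the 90 genes was 751.2 bases long, that of the ribosomal proteins 757.5 and that of all tested genes 2560. At 2 weeks the 36 members of up to 700 bases had a median log2 change of 1.03, with 28 called higher, and the 11 members over 2000 bases one of 0.32, with 4 called higher. Other genes of these bins had medians of 0.32 (639 genes, 28.6% called higher) and -0.32 (8883 genes, 12.6% called higher). Over the 88 members the correlation of change with log2 length at 2, 8 and 10 weeks came to -0.44, 0.65 and 0.57. With GC content it came to -0.34, -0.15 and -0.36, and the points share the same libraries. Over all tested genes the correlations with length were -0.18, 0.28 and 0.29, and those with GC content -0.44, -0.02 and -0.22. At 2 weeks the change over all tested genes thus followed GC content more closely than length. With the length trend removed from each library, 56 members were called higher and 5 lower at 2 weeks, where 27.4% and 22.9% of the genes tested were.

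**Figure D4:**
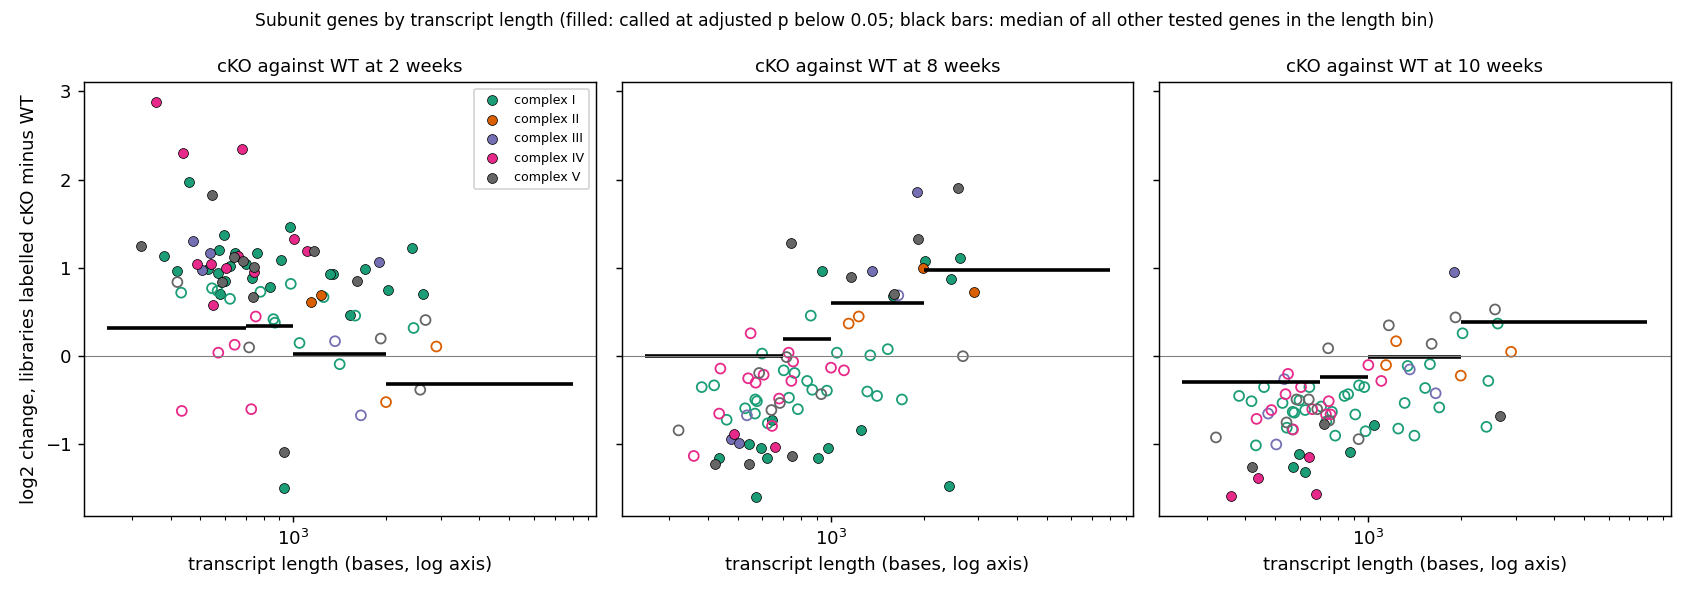
Log2 change between genotypes of each subunit gene against its transcript length (log axis) at 3 ages; filled points passed the adjusted p threshold, and black bars are medians of all other tested genes by length bin. At 2 weeks short subunits lie highest and the bars fall from 0.32 to -0.32 with length, while at 8 weeks the subunits rise with length and the bars go from 0.0 to 0.98.

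At 8 weeks the members split by length and by reference. As deposited, 18 of 88 were called higher and 17 lower in cKO, where 62.2% of all tested genes were called higher and 3.58% lower; the median change was -0.26 for the members, 0.82 for all tested genes and -0.56 for the ribosomal proteins. Scaling by the median of ratios brought the median of all genes from 0.82 to 0.0, and 1 member was then called higher and 64 lower, where 13.4% and 18.8% of all genes were. Scaled to the ribosomal proteins instead, 32 were called higher and 14 lower, where 69.2% and 2.04% of all genes were. None of the members called lower had all cKO libraries below all WT libraries, where 2.14% of all tested genes did, while 12 members lay fully above, where 45.5% did. Without WT replicate 1 no member was called lower, without WT replicate 3 35 were, and without cKO replicate 2 or 4 8 were. The 36 members of up to 700 bases had a median change of -0.66 and the 11 over 2000 bases one of 0.86.

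Of the 18 members called higher at 8 weeks, 9 had transcripts of 1000 to 2000 bases and 7 had longer ones. These are 39.1% and 63.6% of the members of those lengths, below the 49.8% and 75% of other genes called higher there. Atp5a1, the alpha subunit of the ATP synthase head, was at 55.4, 80.4 and 37 FPKM in WT and at 159, 217, 283 and 198 in cKO, a log2 change of 1.91 (SE 0.33). Atp5b, the catalytic beta subunit, was at 172, 199 and 96 FPKM in WT and at 322, 392, 426 and 367 in cKO, a change of 1.33 (SE 0.22). Uqcrc2 was at 26.7, 33.8 and 26.2 FPKM in WT and at 164, 75, 127 and 84.5 in cKO, a change of 1.86 (SE 0.28, limma adjusted p = 1.71e-05). In these genes and in Atp5j, a subunit of the stalk (change 1.28, SE 0.27), the genotypes did not overlap. With the median-of-ratios scaling the changes of the 4 became 0.79, 0.20, 0.76 and 0.15, and of these Atp5a1 alone was called.

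In complex II, Sdha rose by 0.73 (SE 0.27) and Sdhc by 1.0 (SE 0.43) with overlapping libraries, and both turned negative with the median-of-ratios scaling (-0.38 and -0.11). Sdhb and Sdhd did not pass. Ndufa2 and Ndufb2, small subunits of complex I picked for their size after values were seen, had the largest falls. Ndufa2 was at 2110, 571 and 409 FPKM in WT and at 414, 221, 238 and 216 in cKO, a change of -1.59 (SE 0.44), and Ndufb2 at 1090, 333 and 234 against 249, 117, 173 and 125, a change of -1.47 (SE 0.42). Uqcrh and Cox6b1 were called lower by -0.94 (SE 0.38) and -0.88 (SE 0.38), the latter not with Eif2s3y as a covariate (limma adjusted p = 0.0717). The muscle forms were not called at this age: Cox8b differed by -1.13 (SE 0.50), Cox6a2 by -0.48 (SE 0.41) and Cox7a1 by -0.14 (SE 0.48). Of the 14 skeletal muscle markers 11 were called higher, with a summed level of 547 to 1470 FPKM in WT and 798 to 3470 in cKO. Also called higher were 7 of 8 adipocyte markers (248 to 680 FPKM in WT and 541 to 1810 in cKO) and 6 of 6 hair follicle markers (3.09 to 10.2 and 21.4 to 399). So were 6 of 7 basal keratinocyte and 4 of 5 fibroblast markers, but 0 of 5 macrophage markers, where 62.2% of all tested genes were. With the median-of-ratios scaling 7 muscle, 3 adipocyte, 5 hair follicle, 4 basal keratinocyte and 1 fibroblast markers were called higher. Called lower were 1 muscle, 3 of 5 macrophage and 1 of 4 tested neutrophil markers. Of 6 sebocyte markers 3 were called higher and 1 lower. With this scaling 13.4% of all tested genes were called higher and 18.8% lower. The part of these cell types was not tested. The assembly factors Sdhaf2 and Ndufaf1 rose by 0.89 (SE 0.18) and 0.88 (SE 0.20), and both were at -0.12 with the median-of-ratios scaling.

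At 10 weeks 1 member was called higher and 12 lower, where 20.7% of all tested genes were called higher and 4.6% lower. The median change was -0.52 for the members, 0.24 for all tested genes and -0.45 for the ribosomal proteins, of which 2 of 82 were called lower. Cox8b was at 88.3, 77.7 and 148 FPKM in WT and at 43.4, 27.3, 23.5 and 42 in cKO, a log2 change of -1.58 (SE 0.50, limma adjusted p = 0.0236). Cox6a2 was at 55.9, 74.3 and 107 FPKM in WT and at 29.6, 21.4, 21.8 and 29.4 in cKO, a change of -1.56 (SE 0.41). Cox7a1 was at 52, 69.8 and 93.4 FPKM in WT and at 33.2, 26.8, 19.3 and 27 in cKO, a change of -1.38 (SE 0.48). The same 3 muscle forms that were higher in cKO at 2 weeks were thus lower at 10 weeks, again without overlap. Skeletal muscle markers summed to 1470 to 2520 FPKM in WT and 618 to 1150 in cKO at this age, and 3 of 14 were called lower; their part was not tested. Ndufb7, a complex I subunit that faces the intermembrane space, fell by 1.31 on the log2 scale (SE 0.39), and Uqcrc2 was the member called higher, by 0.95 (SE 0.28). Without WT replicate 3 no member was called at 10 weeks in either direction. Without WT replicate 1, 0 were called higher and 3 lower, and without cKO replicate 1, 2 or 3 the members called lower numbered 6, 3 and 4.

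The forms of a subunit were also compared within each library, as the log2 ratio of FPKM + 1, which depends little on the scaling of the library except for genes of very low FPKM. With a pseudocount of 0.1 the difference of Cox7b2 over Cox7b at 8 weeks went from -0.68 to -2.82. All 9 pairs separated the genotypes at 2 weeks, none did at 8 weeks and 2 did at 10 weeks (5 without WT replicate 1). At 8 weeks 1 pair did without cKO replicate 1, WT replicate 1 or WT replicate 3, and 2 without WT replicate 2. One of the 9, Cox7b2 over Cox7b, carries no information on Cox7b2 at 2 weeks, where Cox7b2 was listed at 0 in all 8 libraries, and without it the counts were 8, 0 and 2. The exact two-sided permutation p was 0.0286 for each of the 9 at 2 weeks, the smallest that 4 against 4 libraries allow, and 0.0857 after Benjamini-Hochberg adjustment over 27 tests, so none passed 0.05. With 3 against 4 libraries the smallest possible p is 0.0571. The share of other gene pairs that separate the genotypes was not computed. Of all tested genes taken singly, 22.5% lay fully higher in cKO at 2 weeks and 32.2% fully lower. The genes of a pair can differ in length, as Atp5g1 (2675.5 bases) and Atp5g2 (586) do, so a length trend need not cancel in the ratio.

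Cox8b over Cox8a, the form found in most tissues, had log2 ratios of -4.09, -4.36, -4.33 and -3.99 in WT at 2 weeks and -1.60, -2.12, -1.76 and -2.09 in cKO. In the WT libraries it was 0.44, -2.21 and -1.23 at 8 weeks and -2.16, -1.97 and -1.44 at 10 weeks, and in cKO it was -1.57, -2.08, -3.05 and -2.87 and then -2.83, -3.29, -3.60 and -3.23. The WT libraries of 2 weeks were thus the lowest of all 22, and the genotypes separated in opposite directions at 2 and 10 weeks. Cox6a2 over Cox6a1 differed by 2.31 at 2 weeks and Cox7a1 over Cox7a2 by 1.17, both higher in cKO. At 10 weeks these 2 ratios differed by -0.73 and -0.78 with overlapping libraries.

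The remaining ratios were lower in cKO at 2 weeks. Ndufa4l2 over Ndufa4 differed by -3.46, Cox6b2 over Cox6b1 by -1.66 and Cox4i2 over Cox4i1 by -1.05; Cox6b2 is known from testis and Cox4i2 from lung. Among the genes for the c subunit of the ATP synthase rotor, which encode the same mature protein, Atp5g1 over Atp5g2 differed by -0.43 and Atp5g3 over Atp5g2 by -0.74. Atp5g2 itself rose by 0.84 on the log2 scale (SE 0.31; -0.37 with the ribosomal protein scaling), from 110 to 117 FPKM in WT to 145 to 241 in cKO, while Atp5g3 was at 286 to 326 and 287 to 363 FPKM. Among the widely expressed forms, Cox7a2 rose by 1.14 (SE 0.34) and Cox8a by 0.58 (SE 0.22), the latter with overlapping libraries, and both turned negative with the ribosomal protein scaling (-0.08 and -0.64).

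**Figure D5:**
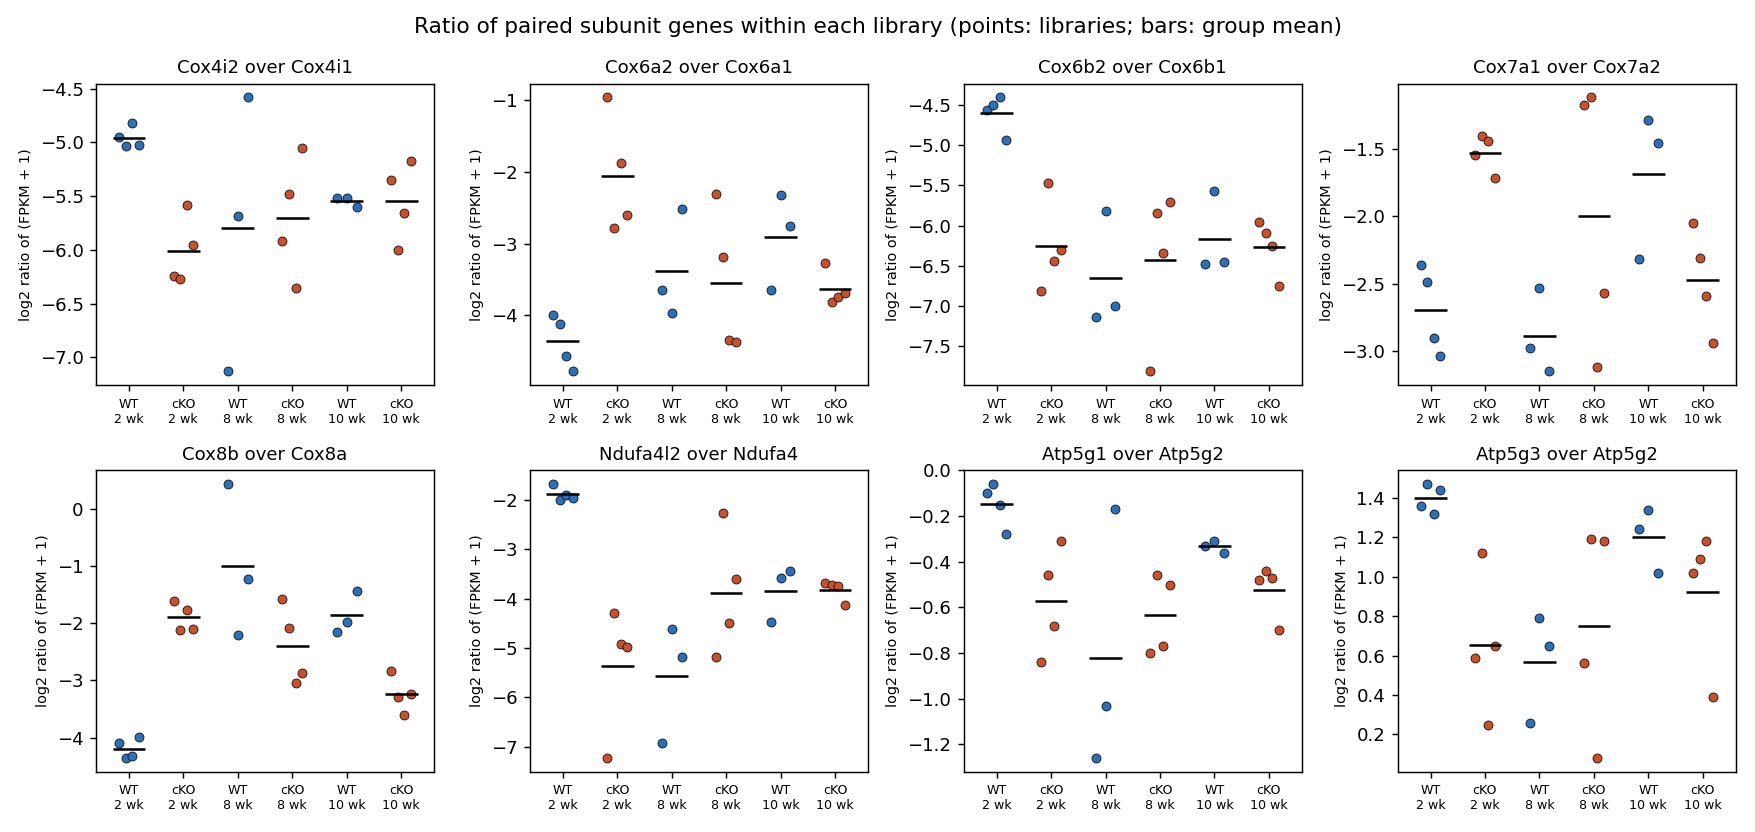
Log2 ratio of FPKM + 1 of paired forms of a subunit in each library (points; bars are group means); Cox7b2 over Cox7b, with Cox7b2 at 0 in most libraries, is not drawn. At 2 weeks the genotypes are apart in all 8 panels, with Cox8b over Cox8a at -4.36 to -3.99 in WT and -2.12 to -1.60 in cKO, and at 8 weeks they overlap in all 8.

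Most members were higher in WT at 8 weeks than at 2 weeks. Age cannot be told apart here from the difference in receptor genes listed above 0, 50.4% to 72.9% at 8 weeks against 3.25% to 5.09%. Of the 88, 55 were called higher and 11 lower at 8 weeks, where 9.69% of all tested genes were called higher and 65.3% lower; the median change was 1.21 for the members, -0.94 for all tested genes and 1.84 for the ribosomal proteins. Cox8b rose by 3.57 on the log2 scale (SE 0.50), Atp5l by 3.14 (SE 0.43) and Ndufa2 by 3.04 (SE 0.44). Atp5a1 fell by 2.17 (SE 0.33), Atp5b by 1.5 (SE 0.22) and Ndufa4l2 by 1.37 (SE 0.36). Without replicate 3 of 8 weeks, 7 members were called lower. Scaled to the ribosomal proteins, 13 members were called higher and 47 lower, where 1.79% and 90.8% of all genes were, and Cox8b, Atp5l and Ndufa2 were still called higher. The other muscle forms Cox6a2 and Cox7a1 rose by 1.85 (SE 0.41) and 1.99 (SE 0.48), while 10 of 14 skeletal muscle markers were called lower and 2 higher in the same contrast, with a median change of -1.52. Over the 22 libraries, which share these groups, the correlation of log2 FPKM + 1 of Cox8b was 0.71 with Mb (myoglobin), 0.27 with Ckm (muscle creatine kinase) and -0.31 with Acta1 (skeletal actin). Cox6a2 and Cox7a1 correlated by 0.66 and 0.67 with Mb and by 0.54 and 0.55 with Ckm. The widely expressed forms Cox6a1, Cox7a2 and Cox8a gave 0.6, 0.64 and 0.59 with Mb and -0.1, 0.02 and 0.42 with Ckm. The correlation with Mb was thus not particular to the muscle forms. Hair follicle markers summed to 2230 to 3300 FPKM in WT at 2 weeks and 3.09 to 10.2 at 8 weeks; their part was not tested.

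Between 8 and 10 weeks in WT, 9 members were called higher and 1 lower, where 30.8% of all tested genes were called higher and 0.587% lower. Atp5a1 rose by 1.38 (SE 0.35), Ndufa4l2 by 1.19 (SE 0.38) and Uqcrfs1, the Rieske iron-sulphur protein of complex III, by 1.05 (SE 0.25), and Ndufb2 fell by 1.33 (SE 0.45). These counts rest on few libraries: 2 were called higher without replicate 3 of 8 weeks or replicate 2 of 10 weeks and 16 without replicate 2 of 8 weeks, while 8 and 2 were called lower without replicates 2 and 3 of 8 weeks and 0 without replicate 1 of 8 weeks or replicate 2 of 10 weeks. In cKO no member was called between 2 and 8 weeks or between 8 and 10 weeks with limma, where 0.382% and 1.97% of all tested genes were called higher and 0.849% and 1.08% lower; at an unadjusted p under 0.05 there were 3 and 7 of 88, where 11.9% and 13.7% of all tested genes reached that level.

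The genotype difference itself changed between ages. Between 2 and 8 weeks it became lower for 46 members and higher for 9 (limma interaction term), where 6.93% and 57% of all tested genes did. The direction again depends on the reference: scaled to the ribosomal proteins, the difference became higher for 49 members and lower for 10 (88.5% and 1.25% of all genes), and the median shift of the members went from -1.13 to 0.61. The largest shifts were -4.01 (SE 0.68) for Cox8b, -3.05 (SE 0.59) for Atp5l and -2.82 (SE 0.56) for Cox6a2, and 2.45 (SE 0.49) for Ndufa4l2, 2.30 (SE 0.44) for Atp5a1 and 1.52 (SE 0.58) for Sdhc. Between 8 and 10 weeks it became lower for 4 members, Ndufab1, Uqcrfs1, Sdhaf2 and Ndufaf1, by -1.15, -1.11, -1.08 and -0.95, where 8.51% of all genes did, and for none of the 4 was this called with the median-of-ratios scaling. Leaving out 1 library changed that count to between 0 (without WT replicate 2 of 10 weeks) and 11 (without WT replicate 2 of 8 weeks). It was 8 without cKO replicate 1 of 8 weeks, 1 without WT replicate 1 or cKO replicate 3 of 10 weeks, and 2 without cKO replicate 2 or 3 of 8 weeks or cKO replicate 1 or 2 of 10 weeks.

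Other mitochondrial gene lists are given for comparison, in the order 2, 8 and 10 weeks. At these ages 17.7%, 62.2% and 20.7% of all tested genes were called higher and 27.1%, 3.58% and 4.6% lower. Of 13 genes of the citric acid cycle, 6, 11 and 2 were called higher in cKO and 1, 0 and 0 lower, with median log2 changes of 0.48, 1.33 and 0.29. Of 75 mitochondrial ribosomal protein genes, 34, 24 and 0 were called higher and 3, 5 and 9 lower, with medians of 0.54, 0.09 and -0.44. Of 24 assembly factors outside the rule, 4, 13 and 1 were called higher and 1, 0 and 0 lower, with medians of 0.02, 0.53 and -0.08. Of 12 regulators of mitochondrial biogenesis, 2, 11 and 3 were called higher and 4, 0 and 0 lower, with medians of -0.38, 0.97 and 0.23. Nrf1, a transcription factor for many respiratory chain genes, differed by -0.30 (SE 0.21), 0.89 (SE 0.23) and 0.44 (SE 0.23) and was called at 8 weeks, where the median-of-ratios scaling gave -0.01. Of 14 core proteasome genes, which have no mitochondrial role, 10, 0 and 0 were called higher and none lower, with medians of 0.87, 0.02 and -0.10. With the median-of-ratios scaling the counts at 8 weeks differed, and 13.4% of all tested genes were called higher and 18.8% lower. Then 4 genes of the citric acid cycle were called higher and 0 lower, and 1 and 48 mitochondrial ribosomal protein genes. The counts were 2 and 11 for assembly factors, 1 and 1 for regulators and 0 and 8 for proteasome genes.

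Since most members moved together at 2 weeks, their promoters were searched in RefSeq windows of 300 bases on GRCm38.p6, 250 before to 50 after the start; 65 of 81 subunit genes were matched by symbol. The motif of NRF1 (the protein of the gene Nrf1) was found on either strand in 17 of 65 (26.2%), against 5.19% of 27025 gene symbols and 8.33% of 60 matched ribosomal protein genes. The ETS motif CCGGAAG was found in 15 of 65 (23.1%), against 9.93% of all symbols and 41.7% of ribosomal protein genes. The E-box CAGCTG, a motif of muscle factors, was found in 6 of 65 (9.23%), against 18.3% of all symbols. The motifs share no letters in the windows below. Of the 17 with the NRF1 motif 10 were called higher at 2 weeks and of the 47 tested without it 31 were, with median changes of 0.84 and 0.89. The following stretches upstream of the start, read on the gene's strand, show the motif in capitals for a gene of complexes I, II, IV and V and for the muscle form Cox8b. They lie at chr6:24527687-24527736 (Ndufa5), chr9:50603899-50603948 (Sdhd), chr5:115349046-115349095 (Cox6a1), chr7:30626116-30626162 (Cox6b1), chr9:44920928-44920974 (Atp5l) and chr7:140900447-140900485 (Cox8b), all on the minus strand. A match is a description of letters and shows no binding.
Ndufa5: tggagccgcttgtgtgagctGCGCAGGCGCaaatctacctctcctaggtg
Sdhd: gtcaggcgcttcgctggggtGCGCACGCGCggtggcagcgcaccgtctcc
Cox6a1: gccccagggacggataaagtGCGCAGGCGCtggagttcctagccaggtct
Cox6b1: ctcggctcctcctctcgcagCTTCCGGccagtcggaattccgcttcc
Atp5l: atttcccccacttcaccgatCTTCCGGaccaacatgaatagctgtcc
Cox8b: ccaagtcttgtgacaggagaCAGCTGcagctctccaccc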

How the data were processed

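Per the labels' protocols, total RNA from ear specimens was made into TruSeq libraries and sequenced as single reads of 50 bases; per the submitters' processing notes, TopHat2 2.1.0, Cufflinks and the mm9 build were used. The authors deposited 1 file of FPKM values per library; read counts were not used here, and the relative depth of the libraries, from the smallest values, was 1.0 to 1.73. Members and gene lists were chosen with earlier results of these data known. Genes at 1 FPKM or more in 3 libraries were kept, and limma 3.58.1 (R 4.3.3) was fitted to log2(FPKM + 1), all 6 groups sharing the spread, with Benjamini-Hochberg adjustment over all tested genes; fold changes on this scale understate those of low genes. The limma steps were tested on simulated data with independent noise for each gene and few changed genes. These data held no shift shared by a whole library, so the test does not cover the scaling, length and GC trends seen here. Named genes were the 4 largest changes in each direction without overlap between genotypes (3 for ages and differences between ages), the highest subunit per complex, the Sdh genes and the paired forms; others are marked as chosen after values were seen. Transcript lengths and GC content came from GENCODE mouse release 21. Replicate correlations were 0.874 to 0.977 and no libraries were identical. Between cKO at 2 and 8 weeks, libraries of the same replicate number correlated by 0.111 to 0.735, and 3 of 4 matched their own number best. In the other comparisons these correlations were -0.296 to 0.34, and some libraries also matched their own number best.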

Additional observations from a re-analysis of the deposited data

Results flagged for a closer look

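Of 176 values in groups of 4 libraries, 22 had a library far from the other 3, where chance gives about 1 in 20 for independent values. These values share the same libraries, so 1 shifted library can raise many flags, and no excess is read from the count. At 10 weeks, 1 cKO library (replicate 4) stood apart most often. Its summed FPKM was 5720 for complex I against 3706 to 3888 in the other 3, 1411 for complex III against 917.1 to 976.4, 3802 for complex IV against 2649 to 2830 and 4928 for complex V against 3436 to 3659. Its FPKM was also above the other 3 for Ndufa4 (788 against 522 to 560), Cox6b1 (595), Ndufa2 (246), Atp5g2 (222), Ndufb7 (145), Uqcrc2 (124) and Sdhd (73.7). Its log2 ratios were also the lowest of the group, -4.13 for Ndufa4l2 over Ndufa4 and -0.70 for Atp5g1 over Atp5g2. In the cKO libraries of 2 weeks, replicate 1 was low for Atp5d (20.3 FPKM) and high for Sdhaf2 (15.8), and replicate 2 was low for Cox8a (249) and Ndufb7 (86.9). In the cKO libraries of 8 weeks, replicate 1 was high for Ndufa2 (414), replicate 2 for Ndufa4l2 (88.9) and replicate 3 for Uqcrfs1 (83.1). In WT at 2 weeks, replicate 2 was high for complex III (804.8) and Uqcrh (260).

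The genotype difference changed between ages by the limma interaction term. Between 2 and 8 weeks it became lower for 46 members and higher for 9 (6.93% and 57% of all genes). The shifts were -4.01 for Cox8b, -3.05 for Atp5l, -2.82 for Cox6a2, 2.45 for Ndufa4l2, 2.30 for Atp5a1 and 1.52 for Sdhc. Scaled to the ribosomal proteins, the difference became higher for 49 and lower for 10 (88.5% and 1.25%). Between 8 and 10 weeks it became lower for 4 (8.51%), with -1.15 for Ndufab1, -1.11 for Uqcrfs1, -1.08 for Sdhaf2 and -0.95 for Ndufaf1.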

How the results depend on the processing

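Counts of members called depended on the scaling, and the cause of each difference was not tested. With the median-of-ratios scaling, 1 member was called higher and 64 lower at 8 weeks (13.4% and 18.8% of all genes) and 0 and 26 at 10 weeks (13.6% and 12.1%); 1 fell in WT from 2 to 8 weeks (30.7%), 0 rose and 12 fell from 8 to 10 weeks (1.68% and 4.19%), and the genotype difference became higher for 2 and lower for 72 from 2 to 8 weeks (24.8% each way) and lower for 0 from 8 to 10 weeks (0.651%). With the ribosomal protein scaling, 5 were called higher and 39 lower at 2 weeks (1.81% and 75.8%), 32 higher at 8 weeks (69.2%) and 7 higher at 10 weeks (27.4%); in WT 13 rose and 47 fell from 2 to 8 weeks (1.79% and 90.8%) and 22 rose and 5 fell from 8 to 10 weeks (25% and 0.403%), and the genotype difference became higher for 49 and lower for 10 from 2 to 8 weeks (88.5% and 1.25%) and lower for 0 from 8 to 10 weeks (0.106%). With the length trend removed, 4 were called higher and 31 lower at 8 weeks (13.6% and 17.2%) and 0 higher at 10 weeks (10.9%); in WT 5 fell from 2 to 8 weeks (25.5%) and 0 rose and 6 fell from 8 to 10 weeks (2.58% and 3.83%), and the genotype difference became higher for 2 from 2 to 8 weeks (21%) and lower for 0 from 8 to 10 weeks (0.971%). With length and GC trends removed, an alternative chosen after the data were seen, 2 were called lower at 2 weeks (20.2%). At 8 weeks 6 were called higher and 31 lower (18.2% and 19.3%), and at 10 weeks 0 higher (12.5%). In WT 4 fell from 2 to 8 weeks (26.5%), and 2 rose and 6 fell from 8 to 10 weeks (4.61% and 4.93%). In cKO 2 fell from 8 to 10 weeks (2.98%). The genotype difference became higher for 2 from 2 to 8 weeks (21.2%) and lower for 0 from 8 to 10 weeks (2.29%).

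In fits of the compared groups alone, 10 were called higher and 2 lower at 8 weeks (43.6% and 1.88% of all genes) and 28 lower at 10 weeks (8.95%). In WT 0 rose and 0 fell from 8 to 10 weeks (4.24% and 0.0778%), and the genotype difference became lower for 0 in that interval (0.82%). With each group's library of lowest median left out, 52 were called lower at 8 weeks (7.47%) and 0 higher and 21 lower at 10 weeks (20.3% and 6.61%). From 8 to 10 weeks 22 fell in WT (3.4%) and 4 in cKO (4%), and the genotype difference became lower for 12 in that interval (23.1%). A fit without the library of highest ribosomal protein level in every group was also chosen after the data were seen. In it 1 was called lower at 2 weeks (17.4%), 10 lower at 8 weeks (2.45%) and 0 fell in WT from 8 to 10 weeks (0.375%). A pseudocount of 0.1 gave 2 that fell in WT from 8 to 10 weeks (0.573%) and 1 isoform ratio apart at 8 weeks.

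Leaving out each library in turn gave 24 to 63 called higher and 1 to 4 lower at 2 weeks, 12 to 20 and 0 to 35 at 8 weeks, and 0 to 1 and 0 to 17 at 10 weeks. In WT it gave 47 to 62 rising and 7 to 13 falling from 2 to 8 weeks and 2 to 16 and 0 to 8 from 8 to 10 weeks. The genotype difference became lower for 33 to 58 and higher for 6 to 11 from 2 to 8 weeks and lower for 0 to 11 from 8 to 10 weeks. The isoform ratios apart numbered 9 at 2 weeks, 0 to 2 at 8 weeks and 2 to 5 at 10 weeks.

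With a replicate block, 59 were called higher at 2 weeks (18.8% of all genes) and 8 fell in WT from 8 to 10 weeks (0.976%), against 54 and 1 without it. Every other count with the block was within 1.5 times that without it. No member was called in cKO from 2 to 8 weeks, where 3 of 4 libraries matched their own number best. Elsewhere libraries of the same number correlated by -0.296 to 0.34.

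Of 1305 values of named genes and isoform ratios under the alternatives, 1101 kept direction and call, 187 lost the call, 2 moved and 15 changed sign. The ribosomal protein scaling turned Sdhb (-0.59), Sdhd (-0.51), Cox6b1 (-0.17), Uqcrc2 (-0.14), Cox7a2 (-0.08), Cox8a (-0.64), Atp5g2 (-0.37) and Ndufaf2 (-0.02) at 2 weeks. The median-of-ratios scaling turned Sdha (-0.38), Sdhc (-0.11), Sdhaf2 (-0.12) and Ndufaf1 (-0.12) at 8 weeks, removal of the length trend turned Sdha (-0.25), and removal of length and GC trends turned Sdha (-0.21) at 8 weeks and Cox4nb (0.18) at 2 weeks. The FPKM values carry no read counts, so counting error could not be given.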
